A study of Mus musculus with 6 samples.

Results

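The transcripts of 10 mitochondrial quality-control proteases and their direct partner subunits were followed in the livers of fasted CREBH-KO mice and fasted WT mice. The genes are Lonp1, Clpp, Clpx, Yme1l1, Afg3l2, Spg7, Htra2, Oma1, Parl and Pmpcb. They were taken by gene symbol from the 55536 gene identifiers counted in each library, and all 10 passed the filter on low counts that left 15589 genes for testing. The study sequenced liver RNA of 3 CREBH-KO samples and 3 WT samples, and all animals had fasted for 14 h. CREBH, the product of Creb3l3, sits in the endoplasmic reticulum membrane of liver cells and enters the nucleus after it is cut. The sources used here give no strain, sex, age or deleted exon. No animal is named for any sample, so the p-values measure the spread between these samples, which may be technical.

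Mitochondria carry their own set of proteases, one compartment at a time. In the matrix, LONP1 and the CLPXP complex unfold and degrade damaged or surplus proteins. In the inner membrane, the AAA proteases face the matrix or the intermembrane space and remove unassembled membrane proteins, while OMA1 and PARL make single cuts that act as signals. When unfolded protein accumulates, cells can raise nuclear genes for mitochondrial chaperones and proteases, a program called the mitochondrial unfolded protein response, which the title of the series names. In liver these proteases share the organelle with the oxidation of fatty acids, the synthesis of ketone bodies and the first and last steps of heme synthesis.

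Between 28106243 and 39288819 reads per library were counted in genes. Values are normalised counts (CPM), that is, reads per 1000000 reads of the TMM-scaled library. Creb3l3 averaged 49.6 ± 6.79 CPM in CREBH-KO and 486 ± 16.6 CPM in WT (SD, n = 3 each). The labels report a lost file of first reads for CREBH-KO 2 and CREBH-KO 3, and how their counts were made is not given in the sources used here. Hepatocyte markers had by far the highest sum of the marker lists. Among them Alb, the albumin gene, averaged 55615 CPM in CREBH-KO and 49555 CPM in WT. The adipocyte markers stayed below 1 CPM in every library, and Lep and Ucp1 had no count.

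Most of the protease transcripts did not pass the test for a difference between the genotypes. Of the 10 genes, 1 fell in CREBH-KO, none rose and 9 did not pass the test. The threshold was an adjusted p of 0.05 in the quasi-likelihood test of edgeR, with Benjamini-Hochberg adjustment over all 15589 genes. By that rule 10.4% of all tested genes changed, 3.91% upwards and 6.46% downwards, so 1 call in 10 genes is about the background share. The gene that fell was Spg7, a subunit of the matrix-facing AAA protease. Without adjustment, 3 of the 10 had p under 0.05 and all 3 were lower in CREBH-KO, namely Spg7, Lonp1 and Pmpcb. Over all tested genes 25.2% had an unadjusted p under 0.05 in edgeR, 11.7% higher and 13.5% lower. In either direction 3 of 10 is thus near the background. For lower genes alone 3 of 10 stands beside 13.5%, and for higher genes none of 10 beside 11.7%. The log2 fold changes ran from -0.32 for Spg7 to 0.42 for Clpx, with a median of -0.05 beside 0.02 over all tested genes. With library size alone both medians were shifted upwards, to 0.02 for the 10 and 0.10 for all tested genes. In 5 of the 10 genes the 3 CREBH-KO libraries and the 3 WT libraries did not overlap, which held for 30.6% of all tested genes. Of these 5, Lonp1, Afg3l2, Spg7 and Pmpcb were lower in CREBH-KO and Clpp was higher. Of the 15589 tested genes, 4776 did not overlap, and 2445 of those were lower in CREBH-KO.

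Promoter sequences are shown for the 2 genes with the smallest p among the 10, Spg7 and Lonp1. Each is the 300 bases from 250 before to 50 after the RefSeq start (GRCm38.p6), written 5′ to 3′ on the gene's own strand. Capitals mark motif matches on either strand. The motifs searched were the cyclic AMP response element core TGACGT, which bZIP factors of the CREB family bind, the ATF4-C/EBP core TGATGNAA, the NRF1 motif (GCGCA, any base, GCGC), the ETS motif CCGGAAGT and the E-box CACGTG.
Spg7, chr8:123065258-123065557, plus strand: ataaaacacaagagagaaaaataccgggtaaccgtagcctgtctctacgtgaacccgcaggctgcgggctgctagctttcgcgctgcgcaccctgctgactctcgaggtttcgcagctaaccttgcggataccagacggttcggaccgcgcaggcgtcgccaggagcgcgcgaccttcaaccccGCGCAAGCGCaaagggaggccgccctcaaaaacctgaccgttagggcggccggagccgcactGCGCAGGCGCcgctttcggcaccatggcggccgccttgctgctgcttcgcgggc
Lonp1, chr17:56626854-56627153, minus strand: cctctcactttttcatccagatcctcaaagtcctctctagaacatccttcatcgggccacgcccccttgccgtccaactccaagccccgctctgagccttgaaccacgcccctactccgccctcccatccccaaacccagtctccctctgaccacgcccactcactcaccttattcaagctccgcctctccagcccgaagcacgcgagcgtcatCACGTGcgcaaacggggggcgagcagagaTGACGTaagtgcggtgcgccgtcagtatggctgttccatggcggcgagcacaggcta
The capitals in Spg7 are 2 matches to the NRF1 motif, which begin 66 and 4 bases before the start. NRF1 is a transcription factor known for nuclear genes of the respiratory chain. The capitals in Lonp1 are an E-box that begins 36 bases and a TGACGT that begins 7 bases before the start. Among 32544 promoter windows of the same length, 4.63% held the NRF1 motif, 7.17% the E-box, 7.55% TGACGT, 3.92% the ETS motif and 3.91% the ATF4-C/EBP core. These windows were not matched for base composition. Their median share of G and C bases was 53.0%, against 64.7% for Spg7, 61.0% for Lonp1 and 65.7% for Oma1. RefSeq promoters of 8 of the 10 genes were searched. In 6 of them the bases after the start lay on the sense strand of a GENCODE transcript, which did not hold for Clpp and Oma1. The Spg7 window lies inside the annotated span of the gene, which begins at base 123062942. Oma1 held 1 match to the NRF1 motif, Parl and Pmpcb 1 match each to the ETS motif, and Clpp, Clpx and Yme1l1 none of the 5. None of the motifs overlapped in the windows shown. A match describes the letters and not a bound site.

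Lonp1 encodes the matrix protease LONP1, which degrades oxidised and misfolded proteins and binds mitochondrial DNA. In GRCm38 the gene spans bases 56614297 to 56626887 of chromosome 17, minus strand. Its normalised counts were 165, 195 and 181 CPM in CREBH-KO 1, 2 and 3, against 215, 224 and 217 CPM in WT 1, 2 and 3. Every CREBH-KO library was below every WT library, and the lowest was CREBH-KO 1. The log2 fold change was -0.28 ± 0.08 (SE), or 17.7% less on the fitted scale, with a 95% interval of -0.47 to -0.09. It did not pass after adjustment (edgeR adjusted p = 0.0653). DESeq2 called it (adjusted p = 0.0327), and so did edgeR when genes of low count were kept (0.0403). The other 13 of 15 alternatives did not, among them library size alone (-0.20, edgeR adjusted p = 0.201). With 1 library left out, the log2 fold change of Lonp1 ran from -0.34 to -0.22 (edgeR adjusted p of 0.0646 to 0.203). With CREBH-KO 1 alone against WT it was -0.43.

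CLPP and CLPX form a second matrix protease, in which CLPX unfolds the substrate and CLPP cuts it. Clpp lies on the plus strand of the same chromosome, from 56990305 to 56996188, and Clpx on the plus strand of chromosome 9 from 65294260 to 65330658. Clpp, the peptidase, had 63.8, 61.0 and 63.9 CPM in CREBH-KO 1, 2 and 3, against 60.9, 53.3 and 55.0 CPM in WT 1, 2 and 3. The groups touched closely, with CREBH-KO 2 just above WT 1, and the difference did not pass (log2 fold change 0.16 ± 0.08 SE, 95% interval -0.02 to 0.34, edgeR adjusted p = 0.263).

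Clpx, the unfoldase, had 264, 232 and 237 CPM in CREBH-KO 1, 2 and 3, against 245, 191 and 113 CPM in WT 1, 2 and 3. The CREBH-KO libraries lay close together and the WT libraries spread widely, with WT 3 lowest and WT 1 inside the CREBH-KO range. The coefficient of variation was 6.91% in CREBH-KO and 36.3% in WT, where it exceeded that of 85.3% of tested genes and where no other of the 10 genes was above 9.98%. The log2 fold change of 0.42 ± 0.23 (SE) had the widest interval of the 10, -0.09 to 0.93, and did not pass (edgeR adjusted p = 0.288). It was 0.16 without WT 3 and 0.67 without WT 1, and it passed when genes of low count were kept (0.40, edgeR adjusted p = 0.0297). The WT libraries also stood apart from each other on the second principal component of all tested genes. On it WT 1, 2 and 3 lay at 22.5, -1.37 and -15.7, and CREBH-KO 1, 2 and 3 at -12.5, 7.41 and -0.296. The part of this component in the spread of Clpx was not tested.

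**Figure D1:**
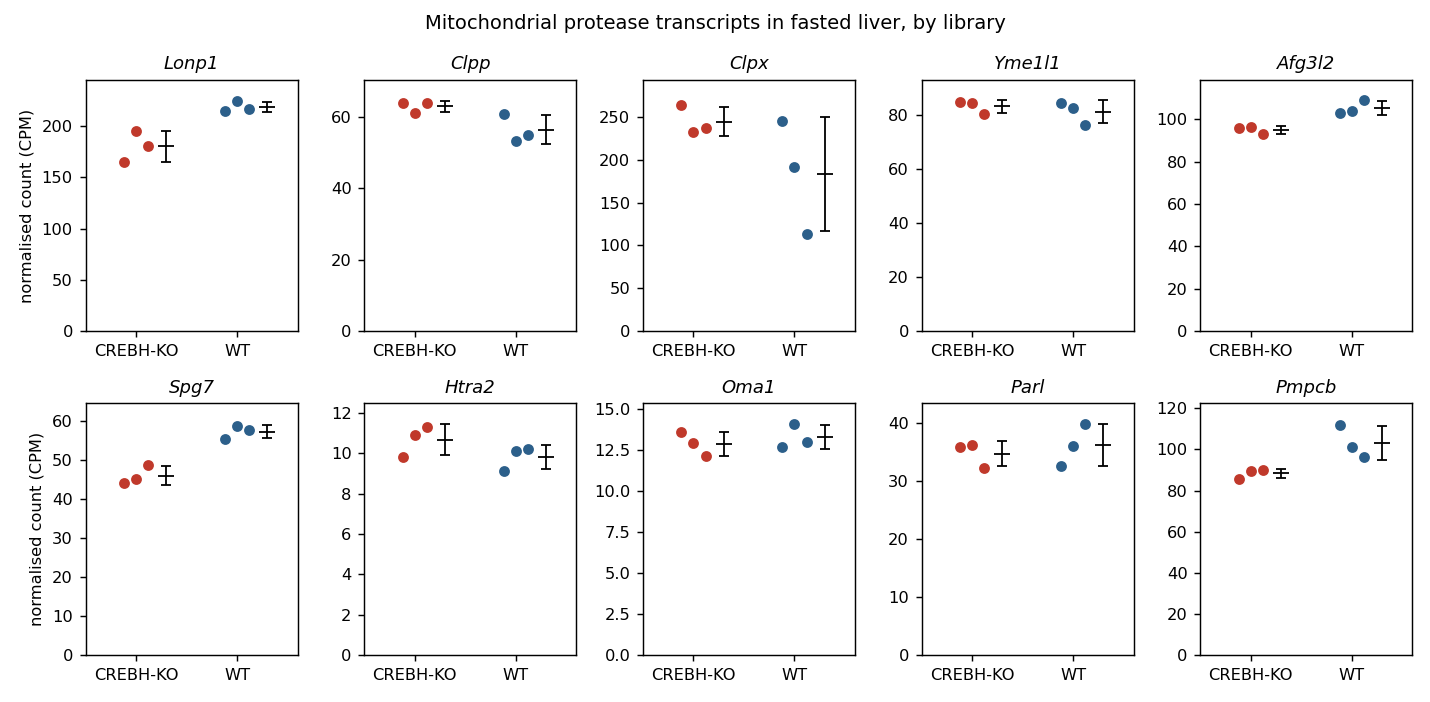
Normalised counts (CPM, axes from 0) of the 10 protease transcripts, with 3 CREBH-KO libraries in red on the left and 3 WT libraries in blue on the right of each panel, and the mean with SD in black. Spg7, Lonp1, Afg3l2 and Pmpcb lie lower in all 3 CREBH-KO libraries than in any WT library, while Clpx ranges from 113 to 245 CPM within WT.

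Spg7 and Afg3l2 encode the subunits of the m-AAA protease of the inner membrane, paraplegin and AFG3L2, which face the matrix and mature or degrade membrane and ribosomal proteins. Spg7 lies on the plus strand of chromosome 8 from 123062942 to 123097760. It had 44.1, 45.0 and 48.8 CPM in CREBH-KO 1, 2 and 3, against 55.4, 58.7 and 57.7 CPM in WT 1, 2 and 3. The groups were apart by more than their spread, and Spg7 fell by 0.32 ± 0.08 on the log2 scale (SE, 95% interval -0.49 to -0.14, edgeR adjusted p = 0.0332), or by 19.7%. The call was lost without CREBH-KO 1 (adjusted p = 0.0946), CREBH-KO 2 (0.105), CREBH-KO 3 (0.0594), WT 2 (0.122) or WT 3 (0.0840). It was also lost with CREBH-KO 1 alone against WT and with scaling by library size alone (edgeR adjusted p = 0.0953). The log2 fold change of Spg7 ran from -0.36 to -0.29 with 1 library left out. With CREBH-KO 1 alone it was -0.40, and with library size alone -0.24.

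Afg3l2 (minus strand of chromosome 18, 67404764 to 67449172) had 95.6, 96.3 and 92.9 CPM in CREBH-KO 1, 2 and 3, against 103, 104 and 109 CPM in WT 1, 2 and 3. Its libraries were the least scattered of the 10 in CREBH-KO, with a coefficient of variation of 1.85% there and 3.20% in WT. All CREBH-KO values were below all WT values, but the log2 fold change of -0.15 ± 0.07 (SE, 95% interval -0.31 to 0.01) did not pass (edgeR adjusted p = 0.226).

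Yme1l1 encodes the i-AAA protease, whose active site faces the intermembrane space and which cleaves the fusion protein OPA1 in its constitutive processing. The gene lies on the plus strand of chromosome 2 from 23156369 to 23199260. It had 84.9, 84.7 and 80.6 CPM in CREBH-KO 1, 2 and 3, against 84.6, 82.9 and 76.5 CPM in WT 1, 2 and 3. The groups overlapped, and the 95% interval of the log2 fold change ran from -0.13 to 0.21 around 0.04 (edgeR adjusted p = 0.806).

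Oma1, Parl and Htra2, which encode the proteases most tied to stress signals and cell death, did not pass and their groups overlapped. OMA1 is a metalloprotease that is switched on when the membrane potential is lost and then cleaves OPA1 and DELE1. Oma1 (plus strand of chromosome 4, 103313812 to 103371868) had 13.6, 12.9 and 12.1 CPM in CREBH-KO 1, 2 and 3, against 12.7, 14.1 and 13.0 CPM in WT 1, 2 and 3. Its log2 fold change was -0.05, with a 95% interval of -0.29 to 0.20 (edgeR adjusted p = 0.835). PARL is a rhomboid protease that cuts PINK1 and PGAM5 within the membrane. Parl (minus strand of chromosome 16, 20279818 to 20302387) had 35.8, 36.2 and 32.2 CPM in CREBH-KO 1, 2 and 3, against 32.6, 36.1 and 39.8 CPM in WT 1, 2 and 3. The log2 fold change was -0.06 (95% interval -0.28 to 0.16, edgeR adjusted p = 0.759). With library size alone, which moved the median of all tested genes from 0.02 to 0.10, the log2 fold changes of Oma1 and Parl were 0.03 and 0.02.

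HTRA2 is a serine protease of the intermembrane space that clears misfolded proteins and can promote apoptosis once released. Htra2 (minus strand of chromosome 6, 83051266 to 83055273) was the least abundant of the 10, with 313 to 369 reads per library. It had 9.81, 10.9 and 11.3 CPM in CREBH-KO 1, 2 and 3, against 9.15, 10.1 and 10.2 CPM in WT 1, 2 and 3. The log2 fold change of 0.12 had a 95% interval of -0.15 to 0.39 (edgeR adjusted p = 0.576). Of its exonic bases, 43.7% lie within exons of the antisense genes Aup1 and Loxl3. With the strand setting of the counting not given, the reads of these genes cannot be told apart there. None of the other 9 genes overlaps an exon of another annotated gene.

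Pmpcb encodes the catalytic subunit of the processing peptidase that removes presequences from proteins imported into the matrix. The gene lies on the plus strand of chromosome 5 from 21737141 to 21757152. It had 85.7, 89.3 and 90.0 CPM in CREBH-KO 1, 2 and 3, against 112, 101 and 96.1 CPM in WT 1, 2 and 3. The CREBH-KO values were all lower and closely spaced. The log2 fold change of -0.22 ± 0.08 (SE, 95% interval -0.41 to -0.04) did not pass (edgeR adjusted p = 0.123). Its partner subunit Pmpca averaged 52.4 ± 4.90 CPM in CREBH-KO and 57.8 ± 5.71 CPM in WT and did not pass either (log2 fold change -0.14, edgeR adjusted p = 0.430), with 20.4% of its exonic bases under exons of an antisense gene.

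**Figure D2:**
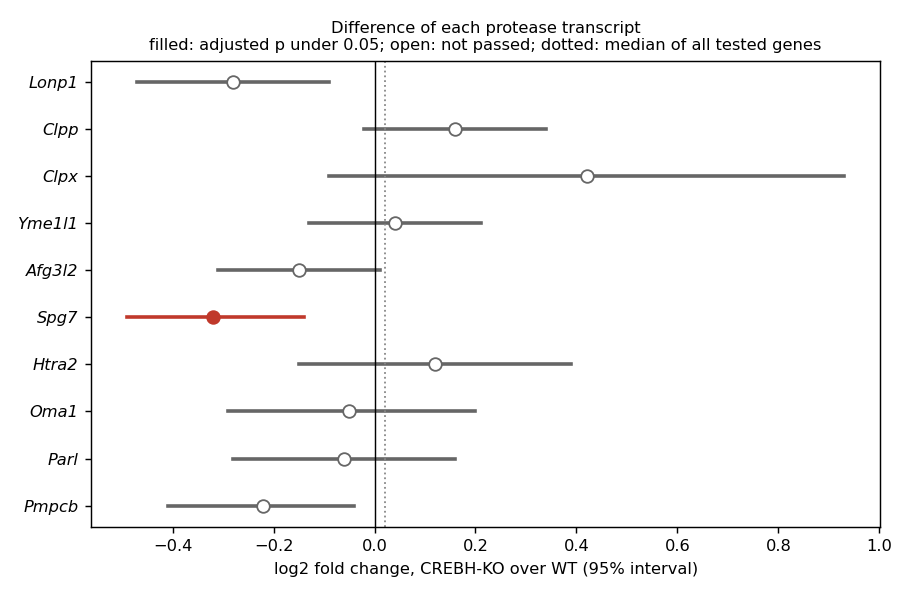
Log2 fold change of CREBH-KO over WT for each of the 10 genes with its 95% interval, filled where the adjusted p was under 0.05 and open otherwise, and a dotted line at the median of all tested genes. Spg7 at -0.32 is the filled point, the intervals of Lonp1 and Pmpcb also lie below 0, and that of Clpx is the widest.

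Levels of different genes were compared per kilobase of annotated exon (CPM per kb). The matrix protease transcripts were the most abundant of the 10 in both genotypes. In CREBH-KO, Clpx averaged 70.0 ± 4.83, Clpp 51.4 ± 1.34 and Lonp1 41.2 ± 3.47 CPM per kb (SD, n = 3), and the ranges of these 3 did not overlap. In WT, Clpx averaged 52.3 ± 19.0, Lonp1 ranged from 49.2 to 51.2 and Clpp averaged 46.1 ± 3.25 CPM per kb, and neighbours in that order overlapped. Pmpcb came next in both, with 17.2 ± 0.445 in CREBH-KO and 20.1 ± 1.64 CPM per kb in WT. Spg7, Afg3l2, Yme1l1 and Parl followed within a narrow band, from 8.92 to 10.4 CPM per kb in CREBH-KO and from 9.29 to 12.7 CPM per kb in WT. In CREBH-KO the ranges of Yme1l1 and Spg7 overlapped, and in WT so did those of Afg3l2 and Yme1l1 and of Yme1l1 and Parl. Oma1 stood at 6.00 ± 0.369 in CREBH-KO and 6.20 ± 0.351 CPM per kb in WT, and Htra2 was lowest at 3.62 ± 0.263 and 3.33 ± 0.194 CPM per kb. Spg7 held rank 6 in CREBH-KO and rank 5 in WT. With the length of the longest transcript in place of the exon union, Spg7 held rank 8 in both. In WT, Clpp (57.4 CPM per kb) then stood above Lonp1 (50.1) without overlap, and Afg3l2 (22.6) overlapped Pmpcb (25.0). The order of Lonp1 and Clpp in WT, the order within the middle band and its gap to Pmpcb thus rest on the length used.

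**Figure D3:**
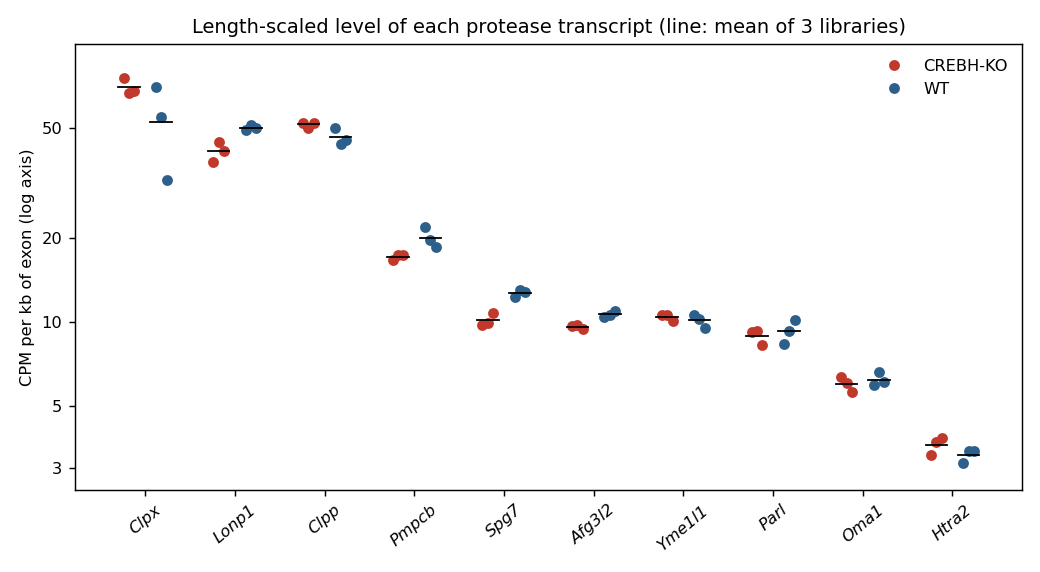
Level of each transcript in CPM per kb of exon on a log axis, with 3 CREBH-KO libraries in red and 3 WT libraries in blue, and a line at each mean. Clpx, Lonp1 and Clpp lie between 32.3 and 75.5 CPM per kb in every library, and Htra2 lies between 3.11 and 3.83.

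The 10 transcripts summed to 231, 228 and 227 CPM per kb in CREBH-KO 1, 2 and 3, against 242, 222 and 199 CPM per kb in WT 1, 2 and 3. The sum thus hardly varied within CREBH-KO and varied more within WT. Clpx made up 30.6 ± 1.84% of the sum in CREBH-KO and 23.3 ± 6.48% in WT, where WT 3 had 16.2%. Lonp1 made up 18.0 ± 1.64% in CREBH-KO and 22.8 ± 2.32% in WT, and the highest CREBH-KO share, 19.6%, was below the lowest WT share, 20.4%. Spg7 made up 4.46 ± 0.276% in CREBH-KO and 5.78 ± 0.674% in WT. Since the shares sum to a fixed total, a high Clpx share lowers the others.

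Ratios between genes that work together were compared by an exact two-sided permutation test over the 6 libraries, for which 0.1 is the smallest p that 3 against 3 allows. The log2 ratio of Spg7 to its m-AAA partner Afg3l2, per kb, was 0.01, 0.03 and 0.20 in CREBH-KO 1, 2 and 3, against 0.24, 0.30 and 0.21 in WT 1, 2 and 3. All CREBH-KO ratios were below all WT ratios, although CREBH-KO 3 lay next to WT 3. The means differed by -0.17 (exact permutation p = 0.1, the smallest possible). Afg3l2 and Spg7 form complexes together, and AFG3L2 can also assemble on its own.

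The log2 ratio of Clpx to Clpp was 0.53, 0.42 and 0.38 in CREBH-KO 1, 2 and 3, against 0.49, 0.33 and -0.48 in WT 1, 2 and 3. WT 3 stood alone below 0 and the groups overlapped (difference 0.33, exact permutation p = 0.400). Without WT 3 the difference was 0.03 (exact permutation p = 0.800). The log2 ratio of Oma1 to Yme1l1, which encode the OPA1-cleaving proteases, averaged -0.80 ± 0.05 in CREBH-KO and -0.71 ± 0.10 in WT (SD, n = 3 each). Its groups overlapped (difference -0.08, exact permutation p = 0.300). Adjusted over the 3 ratios (Benjamini-Hochberg), the exact permutation p was 0.300 for Spg7 to Afg3l2 and 0.400 for each of the others. Scaling factors cancel in these ratios, and the exon length used moves both genotypes alike.

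**Figure D4:**
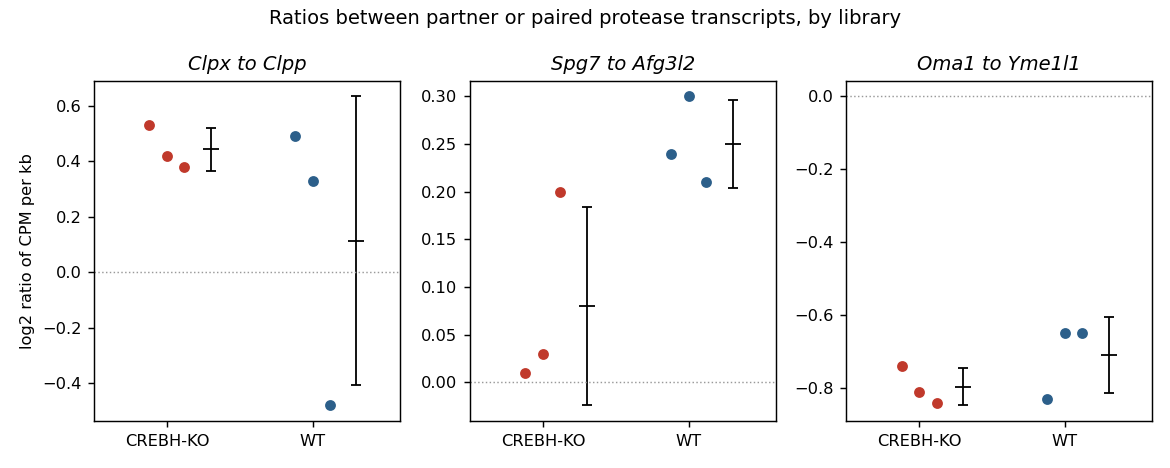
Log2 ratios of CPM per kb for Clpx to Clpp, Spg7 to Afg3l2 and Oma1 to Yme1l1, with 3 CREBH-KO libraries in red left of 3 WT libraries in blue, and mean with SD in black. The Spg7 to Afg3l2 ratio is at most 0.20 in CREBH-KO and at least 0.21 in WT, and WT 3 at -0.48 sets the spread of Clpx to Clpp.

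Of 14 other peptidases listed for mitochondria, 3 fell, 2 rose and 9 did not pass, with a median log2 fold change of -0.21. By the same rule 6.46% of all tested genes fell and 3.91% rose. At an unadjusted p under 0.05 in edgeR, 7 of the 14 were lower and 2 higher, beside 13.5% and 11.7% of all tested genes. Immp2l, a subunit of the inner membrane peptidase that removes sorting signals, fell to 17.1 ± 2.15 CPM in CREBH-KO, against 27.2 ± 1.07 CPM in WT (-0.67 ± 0.11 SE on the log2 scale, edgeR adjusted p = 0.00583). Mipep, the intermediate peptidase that trims some proteins after the processing peptidase, fell to 20.3 ± 3.45 CPM in CREBH-KO, against 32.6 ± 3.62 CPM in WT (-0.68 ± 0.13, edgeR adjusted p = 0.0142). Lactb, a serine protease that forms filaments in the intermembrane space, fell by 0.45 on the log2 scale (edgeR adjusted p = 0.00572). The 2 that rose are not dedicated mitochondrial proteases. Lonp2 (log2 fold change 0.42, edgeR adjusted p = 0.0276) encodes the peroxisomal relative of LONP1, and Prepl (0.36, edgeR adjusted p = 0.0307) an oligopeptidase-like protein.

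The calls of Immp2l and Lactb held with any 1 library left out and were lost with CREBH-KO 1 alone against WT (edgeR adjusted p = 0.166 and 0.126). That of Mipep was lost without CREBH-KO 2, CREBH-KO 3 or WT 2 (adjusted p of 0.0593 to 0.0629). That of Lonp2 was lost without CREBH-KO 1, CREBH-KO 2, WT 2 or WT 3 (0.0578 to 0.0938), and that of Prepl without any 1 of the 6 (0.0539 to 0.116).

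Scaffolds and regulators of the proteases showed no call. Of 8 listed, none passed in edgeR and 1 had an unadjusted p under 0.05, beside 10.4% and 25.2% of all tested genes. The median log2 fold change of the 8 was 0.03. The prohibitins Phb and Phb2, which form rings around the m-AAA protease, averaged 137 ± 8.13 and 237 ± 8.51 CPM in CREBH-KO, against 139 ± 3.55 and 219.7 ± 21.6 CPM in WT. Stoml2, a scaffold that gathers YME1L1 and PARL, averaged 43.0 ± 0.405 CPM in CREBH-KO and 40.3 ± 1.14 CPM in WT. Xiap, a caspase inhibitor that HTRA2 binds, had the smallest p of this list (log2 fold change 0.19, edgeR adjusted p = 0.161).

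Among 15 genes for substrates of these proteases, 2 fell, none rose and 13 did not pass. By the same rule 6.46% of all tested genes fell and 3.91% rose. Of the 15, 12 had a log2 fold change below 0, where 46.9% of all tested genes were below 0, and the median of the 15 was -0.21. None of the 15 was higher at an unadjusted p under 0.05 in edgeR and 7 were lower, beside 11.7% and 13.5% of all tested genes. Alas1 encodes the rate-limiting enzyme of heme synthesis in liver, whose turnover has been tied to LONP1 and CLPXP. It had 201, 328 and 234 CPM in CREBH-KO 1, 2 and 3, against 738, 591 and 799.9 CPM in WT 1, 2 and 3. The groups were far apart, and Alas1 fell by 1.48 ± 0.18 on the log2 scale (SE, edgeR adjusted p = 0.00168), a call that held with any 1 library left out. Pink1, the kinase that PARL cuts and that marks damaged mitochondria, fell to 192 ± 3.23 CPM in CREBH-KO, against 235 ± 11.7 CPM in WT (log2 fold change -0.29, edgeR adjusted p = 0.0369).

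Opa1, the fusion GTPase, and Dele1, which carries the OMA1 signal to the cytosol, did not pass (log2 fold changes -0.17 and -0.33, edgeR adjusted p = 0.242 and 0.0751). Dele1 passed without WT 1 (-0.41, adjusted p = 0.0366) and when genes of low count were kept (-0.36, adjusted p = 0.0357). The LONP1 substrate Tfam, the packaging protein of mitochondrial DNA, did not pass either (-0.08, edgeR adjusted p = 0.610).

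The chaperones of the same stress program moved in both directions. Of 9 listed, Hspe1 rose, Dnaja3 and Trap1 fell and 6 did not pass, with a median log2 fold change of -0.13. Over all tested genes 3.91% rose and 6.46% fell. Hspe1, the co-chaperonin, had 169, 174 and 155 CPM in CREBH-KO 1, 2 and 3, against 135, 137 and 134 CPM in WT 1, 2 and 3 (log2 fold change 0.29, edgeR adjusted p = 0.0409). Trap1 had 152, 155 and 154 CPM in CREBH-KO 1, 2 and 3, against 179, 197 and 187 CPM in WT 1, 2 and 3 (-0.29, edgeR adjusted p = 0.0374). Both thus moved by amounts close to those of Spg7 and Lonp1. Hspd1, the chaperonin itself, averaged 449 ± 31.9 CPM in CREBH-KO and 463 ± 25.4 CPM in WT.

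Of 10 stress-linked transcriptional regulators, Atf5, Foxo3 and the deacetylase Sirt3 fell, Ddit3 rose and 6 did not pass. The shares over all tested genes were 6.46% for falls and 3.91% for rises. Atf5, a bZIP factor that can induce Lonp1 and Hspd1, had 296, 290.1 and 313 CPM in CREBH-KO 1, 2 and 3, against 684, 638 and 549.5 CPM in WT 1, 2 and 3. Its groups did not overlap, and its log2 fold change was -1.06 ± 0.10 (SE, edgeR adjusted p = 4.36e-04). Ddit3, which encodes CHOP, averaged 9.23 ± 1.10 CPM in CREBH-KO and 5.63 ± 1.07 CPM in WT (0.71, edgeR adjusted p = 0.0359), counted beside a duplicate gene model that took no reads. Atf4 averaged 107 ± 5.47 CPM in CREBH-KO and 85.1 ± 17.3 CPM in WT and did not pass (0.33, edgeR adjusted p = 0.156). It passed without WT 1 (0.49, adjusted p = 0.0114).

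Falls of the size of Spg7's were also seen among 20 general mitochondrial genes, of which 4 fell, none rose and 16 did not pass. By the same rule 6.46% of all tested genes fell and 3.91% rose. At an unadjusted p under 0.05 in edgeR, 8 of the 20 were lower and none higher, beside 13.5% and 11.7% of all tested genes. The median log2 fold change of the 20 was -0.15, and -0.08 with library size alone. Letm1, an inner membrane ion exchanger, fell by 0.49, Sdha, the flavoprotein of complex II, by 0.46, citrate synthase Cs by 0.34 and Uqcrc2, a core subunit of complex III, by 0.26 on the log2 scale (edgeR adjusted p = 0.00626, 0.0132, 0.0469 and 0.0490).

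The calls of Letm1 and Atf5 held with any 1 library left out, and with CREBH-KO 1 alone against WT that of Letm1 was lost (edgeR adjusted p = 0.140). Those of Pink1, Dnaja3, Trap1, Sirt3 and Foxo3 were each lost when CREBH-KO 1, 2 or 3, WT 2 or WT 3 was removed (adjusted p of 0.0501 to 0.156). Those of Hspe1 and Uqcrc2 were lost without any 1 of the 6 libraries (0.0513 to 0.175), that of Cs without any but WT 3 (0.0787 to 0.136) and that of Ddit3 without any but WT 3 (0.0501 to 0.123). That of Sdha was lost without CREBH-KO 2, CREBH-KO 3 or WT 2 (0.0511 to 0.0646). Scaling by library size alone ended the calls of Pink1, Dnaja3, Trap1, Sirt3, Cs and Uqcrc2 (adjusted p of 0.0731 to 0.143), and upper-quartile factors ended the same ones except Dnaja3 (0.0549 to 0.0815). Keeping genes of low count ended those of Hspe1 (0.0816), Prepl (0.0710) and Uqcrc2 (0.0546), and robust dispersion that of Foxo3 (0.0596). With CREBH-KO 1 alone against WT, Alas1 and Atf5 were the 2 of the 19 called genes of the protease and pathway lists that still passed. Exons of antisense genes cover 19.7% of the exonic bases of Uqcrc2, 16.6% of those of Stoml2, 12.7% of those of Sirt3, 10.8% of those of Prepl, 7.60% of those of Hspe1 and 7.53% of those of Alas1.

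**Figure D5:**
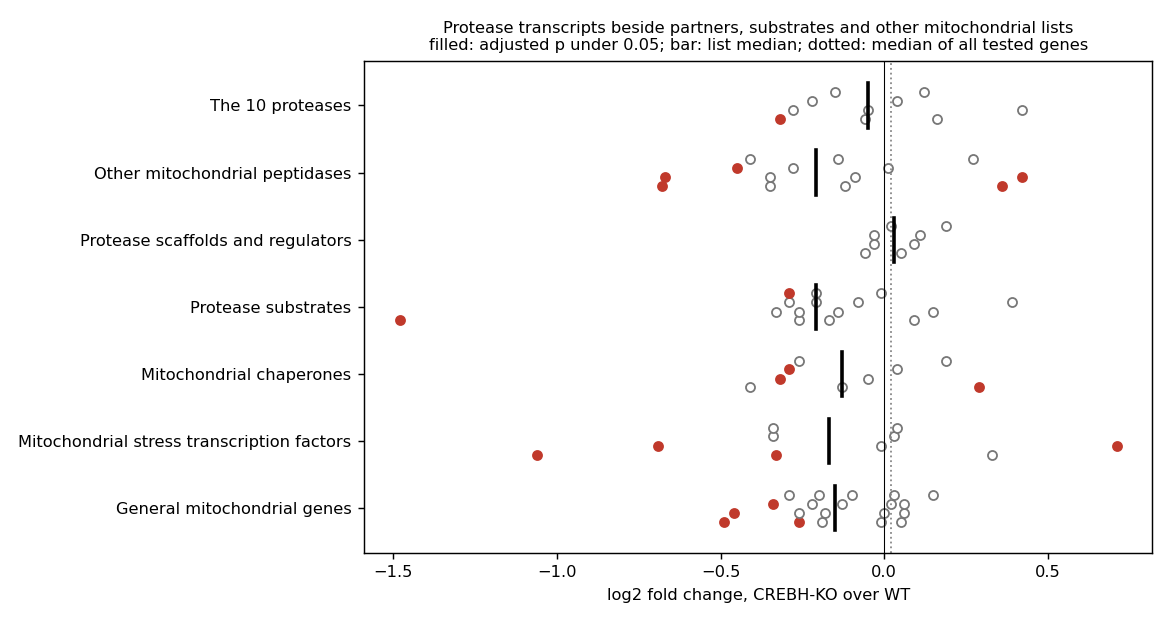
Log2 fold change of CREBH-KO over WT for every tested gene of 7 lists, filled where the adjusted p was under 0.05, with a bar at each list's median and a dotted line at the median of all tested genes. The 10 proteases lie between -0.32 and 0.42 around a median of -0.05, and the list medians run from -0.21 to 0.03.

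Markers of other cell types were read beside these results. In bulk liver, fewer cells of a type and less RNA per cell cannot be told apart. The 8 hepatocyte markers summed to between 69497 and 74535 CPM in CREBH-KO and between 60139 and 73782 CPM in WT, and 1 of them, Apob, fell (log2 fold change -0.36, edgeR adjusted p = 0.0419). The 8 stellate cell markers summed to between 279 and 314 CPM in CREBH-KO and between 219.8 and 266 CPM in WT, with Dcn as the gene that rose (0.56, edgeR adjusted p = 0.00552). Dcn alone ranged from 113 to 131 CPM in CREBH-KO and from 78.9 to 90.0 CPM in WT. The other 7 stellate cell markers did not pass. Of the 8, 1 had a log2 fold change below 0, and the median was 0.50. At an unadjusted p under 0.05 in edgeR, 3 of the 8 were higher and none lower, beside 11.7% and 13.5% of all tested genes. The lymphocyte markers summed to between 8.54 and 10.8 CPM in CREBH-KO and between 3.18 and 8.03 CPM in WT, and Ptprc, a gene of all leukocytes, rose. Without Ptprc the sums overlapped, from 3.46 to 4.33 CPM in CREBH-KO and from 1.27 to 4.78 CPM in WT, and Cd3e, Cd4, Cd8a, Ms4a1 and Nkg7 were below 1 CPM in every library. The bile duct cell markers summed to between 41.9 and 69.6 CPM in CREBH-KO and between 35.9 and 79.1 CPM in WT. Of the 5 tested, Sox9 rose (0.96, edgeR adjusted p = 0.0312), while 3 had log2 fold changes below 0, among them Epcam at -1.11 (edgeR adjusted p = 0.107), and the median was -0.09. None of the 8 Kupffer cell and macrophage markers and none of the 8 endothelial markers passed (edgeR, with 1 and 3 at an unadjusted p under 0.05). Over all tested genes 10.4% passed after adjustment and 25.2% had an unadjusted p under 0.05 in edgeR. The part of the marker shifts in the values of the proteases was not tested.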

How the data were processed

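Liver RNA of 3 CREBH-KO and 3 WT samples, grouped by the genotype label, was analysed from the read counts per gene that the authors deposited. Per the labels, whose titles name HTSeq, these are HTSeq counts. No source used here names the aligner, build, HTSeq version or strand setting. Each of the 55536 gene identifiers matched GENCODE M21 (GRCm38), which supplied symbols, positions and exon lengths. Lines that name no gene took 27.4% to 31.2% of each file's total and were left out.

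The fit used edgeR 4.0.16 under R 4.3.3, filterByExpr (minimum count 10, minimum total 15), TMM factors (0.967 to 1.05), the quasi-likelihood test without covariates and Benjamini-Hochberg adjustment over 15589 genes. A positive log2 fold change means higher in CREBH-KO. The SE is the absolute log2 fold change over the square root of F, and the 95% interval uses the test's degrees of freedom. With 28106243 to 39288819 counts per library, the SE of a gene depends on its own counts and on the spread between libraries. Tests are two-sided. No pair of replicates was a repeat of 1 library (lowest chi-square over its degrees of freedom, 18.8). Fits were also run on simulated data, and the outcome is not reported here. Alternatives used DESeq2 1.42.0, limma 3.58.1, other scalings and filters, and left-out libraries.

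The 10 members and all lists were chosen with earlier results of these data known. Named genes are the 10, Creb3l3, every list gene that passed, or a list's gene of smallest p, and a fixed set of partners, substrates and regulators. Other list genes are named only in counts.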

Additional observations from a re-analysis of the deposited data

How the results depend on the processing

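The number of the 10 proteases called was 1 in the reported fit and in 5 alternatives (3 scalings or dispersions, a stricter filter and limma-voom), each time Spg7. It was 0 with library size alone and 0 with CREBH-KO 1 alone against WT (edgeR, with 2 at an unadjusted p under 0.05 in each), 2 in DESeq2 (Lonp1 and Spg7) and 3 with no filter on low counts (Lonp1, Clpx and Spg7). With 1 library left out it ranged from 0 to 1. Over all genes, 1616 were called, 2456 with no filter and 228 with CREBH-KO 1 alone. With 1 library left out the number ranged from 658 (without WT 2) to 1806, and it was 838 without CREBH-KO 2 and 778 without CREBH-KO 3. Higher genes made up 37.7% of the calls, and 52.8% with library size alone. The differences of the 3 ratios kept their sign in the alternatives run, from 0.03 to 0.52 for Clpx to Clpp, from -0.24 to -0.13 for Spg7 to Afg3l2 and from -0.14 to -0.03 for Oma1 to Yme1l1. No called gene of the lists changed sign. The cause of these shifts was not tested. No paired analysis was possible because the labels give the genotypes no shared replicate numbers, and the numbers used here only name the samples.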
